A study of Homo sapiens with 13 samples.

Results

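Chromatin accessibility was examined around the 10 genes CCND1, CCND2, CCND3, CDK4, CDK6, RB1, RBL2, E2F3, E2F4 and E2F5, which encode the D-type cyclins, their kinases, the RB family and its E2F partners. Every deposited ATAC-seq peak that overlapped the gene body or the 25 kb on either side of it was taken, which gave 113 of 129347 peaks. Gene bodies and transcription start sites (TSSs) came from GENCODE release 44 on hg19. Of these peaks, 11 overlapped a TSS of the gene itself, 16 overlapped a TSS of another gene only, and the other 86 overlapped no annotated TSS and are called flanking peaks. T98G cells, an established human glioblastoma line, were compared between G1, after 72 h of serum starvation, and M-phase, after 48 h of starvation and a 36 h release into medium with nocodazole, a drug that holds cells in mitosis by depolymerizing microtubules. Mitotic cells were collected by shaking them off. There were 3 libraries per phase. The G1 libraries were sequenced on a HiSeq only and the M-phase replicates on a HiSeq and a NextSeq, and serum and drug also differed between the groups, so phase, serum, drug and platform cannot be told apart. In a bulk population, a change in the share of cells with an open site and a change in how open the site is in each cell cannot be told apart either. The labels do not say that the replicates were separate cultures, so the p-values measure the spread between these libraries, which may be technical.

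ATAC-seq uses the Tn5 transposase to place sequencing adapters in open chromatin, and the deposited value is a read count per peak scaled down to the smallest library (called the scaled count here). Totals over all peaks were 4191845 to 5092426 in G1 and 5475345 to 6000423 in M-phase. By the spacing of the values they came from an estimated 4334547 to 5365413 reads in G1 and 12470228 to 14202564 in M-phase, so counting error was smaller in M-phase. Changes are M-phase over G1 after taking log2(scaled count + 8), and this constant makes changes of weak peaks look smaller. The test was limma on 73121 peaks left by a minimum on the values, and a peak was called at a Benjamini-Hochberg adjusted p under 0.05.

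The 10 genes form the switch at the G1 restriction point. Mitogens induce the D-type cyclins, which activate CDK4 and CDK6, and these kinases phosphorylate RB1 and the related pocket protein RBL2 (p130). The hypophosphorylated pocket proteins hold E2F factors at promoters of cell cycle genes and keep those genes low in quiescent and early G1 cells. E2F3 is mainly an activating E2F, while E2F4 and E2F5 mostly act with pocket proteins as repressors. Accessible promoters and enhancers are known to persist to varying degrees on mitotic chromosomes, when most transcription stops.

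Because the members encode the E2F system or are its targets, their promoters were searched for 4 E2F words (TTTCCCGC, TTTCGCGC, TTTGCCGC and TTTGGCGC, on both strands) between 250 bases before and 50 bases after the canonical TSS. The promoters of CCND1, RB1, E2F3 and E2F5 held one, 4 of 10 members, against 4.37% of 19894 protein-coding promoters of the same length. Those were taken with or without a peak and were not matched for GC content. Other words were also searched there. The SP and KLF word GGGCGGG was in 6 of 10 members (47.2% of all promoters) and the CHR word TTTGAA in 3 (11.5%). CCAATC was in 1 (18.2%) and the ETS word CCGGAAGT in 0 (6.16%). E2F sites of CCND1, RB1 and E2F3 are shown from the plus strand of hg19 with the word in capitals. They lie at chr11:69455766-69455795, chr13:48877851-48877880 and chr6:20402046-20402075, and the first base of the word lies 147, 25 and 53 bases before the TSS. These 3 fall inside promoter peaks that were called higher in M-phase, although the E2F3 peak was lower under a loess scaling. The E2F5 word, 192 bases before its TSS and not printed, falls inside a promoter peak that was not called (log2 change -0.24). Of all tested peaks at any TSS, 43.2% were called higher. Without such a word, the canonical promoter peaks of CCND3, CDK4, CDK6 and RBL2 were also called higher as deposited. That of E2F4 was not. In the central 200 bases of a peak, 0 of the 11 TSS peaks of the members held an E2F word, against 2.41% of all TSS peaks. Whether the words go with the rises was not tested.
CCND1: tgctcccggcgTTTGGCGCccgcgccccct
RB1: ggaagtgacgtTTTCCCGCggttggacgcg
E2F3: ttgaaaagccgGCGGGAAAtccgagtttcg

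Among flanking peaks that were called, the central 200 bases were searched on both strands for words of factors with sites in distal elements: AP1 (TGANTCA), FOX (TGTTTAC or TATTTAC), RUNX (TGTGGTT or TGCGGTT) and TEAD (ACATTCC). The windows shown are, for CDK6, RB1 and E2F3, those of the largest rise and the largest fall among called peaks that hold such a word, with the words in capitals. They are chr7:92381745-92381944 in a CDK6 intron with an AP1 word (rise), chr7:92325054-92325253 in another part of the CDK6 introns with a FOX word (fall), chr13:49079940-49080139 in the RB1 gene body with a RUNX and a FOX word (fall) and chr6:20378168-20378367 upstream of E2F3 with a TEAD word (fall). All are given as the plus strand of hg19.
CDK6 rise: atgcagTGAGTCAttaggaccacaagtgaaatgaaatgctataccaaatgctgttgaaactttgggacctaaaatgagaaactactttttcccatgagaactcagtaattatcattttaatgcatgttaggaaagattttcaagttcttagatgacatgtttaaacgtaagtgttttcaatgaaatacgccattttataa
CDK6 fall: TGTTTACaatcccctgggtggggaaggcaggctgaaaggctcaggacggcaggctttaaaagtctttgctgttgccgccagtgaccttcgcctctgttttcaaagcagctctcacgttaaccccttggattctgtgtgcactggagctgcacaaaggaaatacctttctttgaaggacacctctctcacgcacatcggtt
RB1 fall: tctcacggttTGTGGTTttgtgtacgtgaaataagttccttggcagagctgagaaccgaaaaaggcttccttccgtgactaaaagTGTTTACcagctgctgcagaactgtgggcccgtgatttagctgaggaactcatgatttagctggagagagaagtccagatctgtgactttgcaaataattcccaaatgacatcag
E2F3 fall: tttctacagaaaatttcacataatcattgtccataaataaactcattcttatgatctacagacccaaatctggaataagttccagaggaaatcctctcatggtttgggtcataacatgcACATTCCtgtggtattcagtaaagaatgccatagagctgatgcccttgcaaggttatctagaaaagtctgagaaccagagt

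The question was whether the start sites of these genes and the elements around them kept, gained or lost accessibility between G1 and M-phase. A test was possible for 83 member peaks and called 24 higher and 9 lower, while 14.3% of all tested peaks were higher and 13.1% lower. Start sites and flanking elements contributed unequally. Of the 11 TSS peaks of the members, all tested, 8 were higher in M-phase and 0 lower, where 43.2% of the 15500 tested peaks at any TSS were higher and 5.94% lower. At 9 of the 11 all 3 M-phase libraries lay above all 3 G1 libraries and at 0 all lay below, against 47.1% and 8.63% of all TSS peaks. The median log2 change of the members' TSS peaks was 0.82, with a range of -0.24 to 0.97, beside 0.37 over all 16131 TSS peaks. Of the 86 flanking peaks, 57 passed the filter, 7 were higher and 9 lower. Over all 57621 tested peaks at no TSS, 6.51% were higher and 15% lower. Without overlap, 13 flanking peaks lay higher and 17 lower in M-phase, against 12.2% and 14.4% of all peaks at no TSS. The median log2 change of the 86 flanking peaks was 0.10, beside 0.04 over all 113216 peaks at no TSS. Neither count of flanking peaks was tested against its background, and the peaks of a window share a locus.

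**Figure D1:**
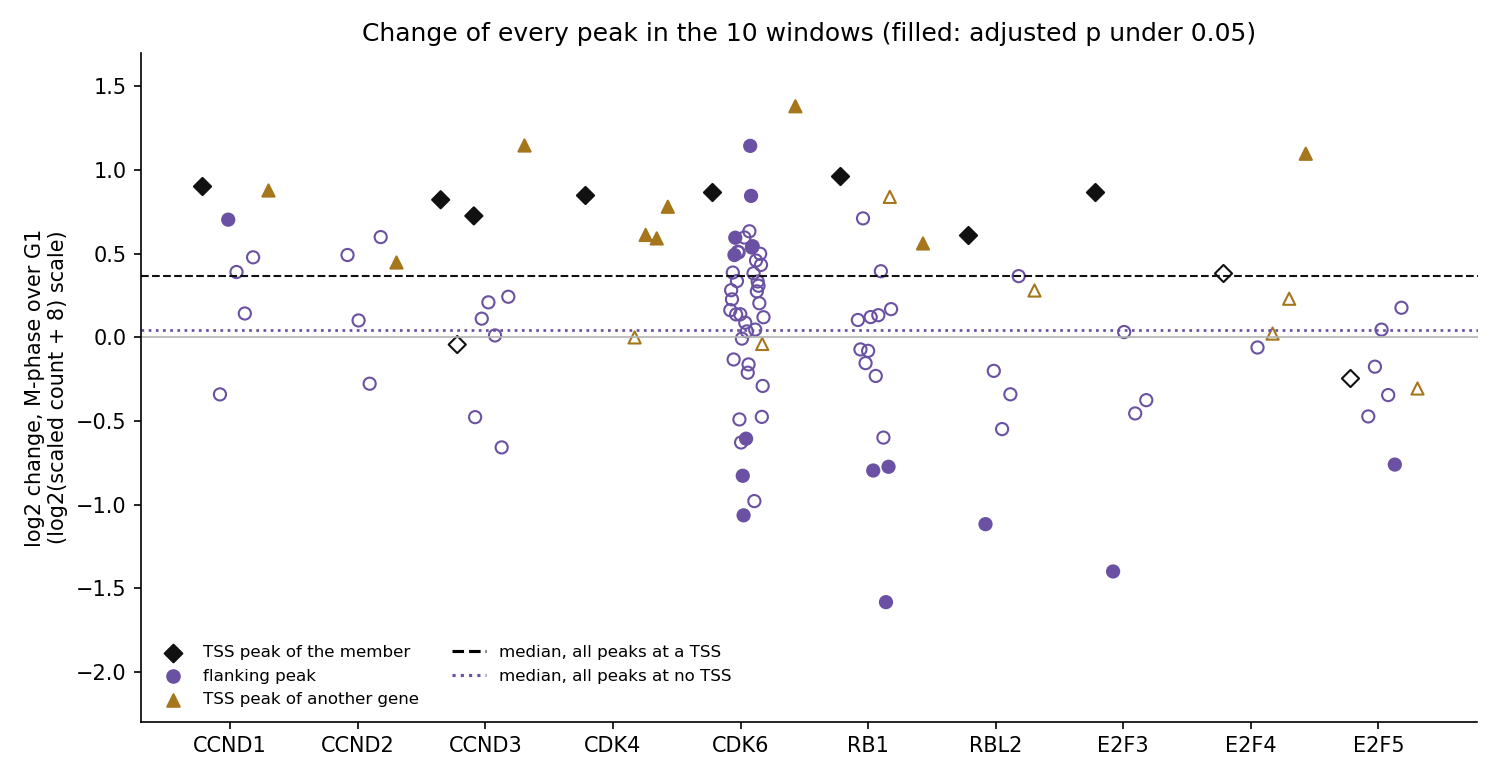
Log2 change (M-phase over G1, on the log2(scaled count + 8) scale) of each of the 113 peaks, by gene on the x axis. Diamonds are TSS peaks of the gene, circles flanking peaks and triangles peaks at a TSS of another gene, filled where the adjusted p was under 0.05, and the lines are the medians over all peaks at a TSS (0.37) and at no TSS (0.04). Diamonds lie high, 8 of 11 filled, while circles spread on both sides of 0.

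The gap between start sites and flanking peaks was wider in every M-phase library than in any G1 library. On the log2(scaled count + 8) scale, the median level of the members' TSS peaks exceeded that of their flanking peaks by 3.00, 2.73 and 3.09 in G1 replicates 1, 2 and 3, and by 3.59, 3.75 and 4.03 in M-phase replicates 1, 2 and 3. The same difference over all peaks was 2.87, 2.74 and 3.06 in G1 and 3.20, 3.32 and 3.36 in M-phase. These values are as deposited and carry no p. Under the loess scaling, which shifts strong peaks against weak ones, the median change of the members' TSS peaks was 0.17 and that of their 57 tested flanking peaks 0.06, against 0.82 and 0.05 as deposited.

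Among the D-type cyclins, the promoters of CCND1 and CCND3 gained accessibility and CCND2 had no peak at any of its 6 annotated TSSs. The CCND1 promoter peak (chr11:69455257-69456560) had scaled counts of 92.5, 115.6 and 99 in G1 and 203.1, 205.2 and 185.3 in M-phase. All M-phase libraries lay above all G1 libraries, with a fitted rise of 0.90 on the log2 scale (standard error 0.20, limma adjusted p = 0.000163). The canonical CCND3 promoter (chr6:41908463-41910115) had 141.2, 185.2 and 153 in G1 and 248.8, 272.4 and 348.4 in M-phase, again without overlap. The rise was 0.82 on the log2 scale (standard error 0.19, limma adjusted p = 0.000281), and 0.30 under loess, where it was not called (limma adjusted p = 0.139).

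CCND3 has upstream start sites 107 and 109 kb away, and only the farther peak was called higher as deposited. Whether the peaks differ from each other was not tested. The peak at chr6:42017927-42018689, which is shared with the start of TAF8, a TFIID subunit gene, had 78.5, 63.3 and 81 in G1 and 121.5, 120.7 and 141 in M-phase, a log2 change of 0.73 (limma adjusted p = 0.00548). It was not called without M-phase replicate 3 (0.66, limma adjusted p = 0.0524) or with equal totals (0.40, limma adjusted p = 0.0938). The neighbouring peak at chr6:42016307-42016963 had 43.7, 50 and 60 in G1 and 47.4, 62.2 and 39.9 in M-phase, and the groups overlapped (log2 change -0.04, standard error 0.24, limma adjusted p = 0.923). For CCND2, the nearest peak was an intronic one 3.31 kb from the canonical TSS. It was weak, with 12.9, 17.2 and 8 in G1 and 20.2, 16.1 and 26.5 in M-phase, and was not called (log2 change 0.49, limma adjusted p = 0.215).

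Both kinase genes gained promoter accessibility, except under loess, where the CDK4 rise was 0.27 (limma adjusted p = 0.138) and CDK6 was lower. CDK4 (chr12:58145511-58146734) had scaled counts of 191.9, 152.3 and 197 in G1 and 293.7, 337.9 and 360.4 in M-phase. The lowest M-phase library stood well above the highest G1 library, with a log2 change of 0.85 (standard error 0.18, limma adjusted p = 0.00011). The CDK6 peak (chr7:92461300-92466250) was the widest of the members' TSS peaks at 4951 bp, and it also covers the start of the antisense gene CDK6-AS1, which accessibility cannot separate from CDK6. It had 1145.3, 1127.4 and 1210 in G1 and 2092.3, 2163.2 and 2123.9 in M-phase, the smallest relative spread within a phase of all these promoters. The fitted log2 change was 0.87 (standard error 0.13, limma adjusted p = 1.57e-07).

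Both pocket protein genes rose as well, RB1 by more than RBL2 in the fitted value. RB1 (chr13:48877334-48878801), whose peak also covers the divergent transcript RB1-DT, had 163, 133.6 and 197 in G1 and 257.5, 342.4 and 390.2 in M-phase. With a log2 change of 0.97 (standard error 0.19, limma adjusted p = 2.09e-05) it was the largest rise among the 11 TSS peaks. RBL2 (chr16:53468032-53469560) had 159.1, 121.1 and 196 in G1 and 231.5, 233.6 and 264.7 in M-phase, so the log2 value rose by 0.61 (standard error 0.19, limma adjusted p = 0.00912). The RBL2 groups did not overlap, but the adjusted p was 0.0837 without G1 replicate 2 and 0.075 without M-phase replicate 3. The RBL2 call was also lost with equal totals (0.27, limma adjusted p = 0.167) and under loess (0.13, limma adjusted p = 0.562). Whether RB1 and RBL2 differ from each other was not tested.

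Of the 3 E2F genes, only E2F3 was called as deposited, and whether the 3 differ from each other was not tested. The E2F3 promoter (chr6:20401408-20404325), a strong peak of 2918 bp, had 703.9, 554.7 and 844 in G1 and 1158.4, 1287.2 and 1366.6 in M-phase. Every M-phase library exceeded every G1 library, and the rise was 0.87 on the log2 scale (standard error 0.15, limma adjusted p = 2.13e-06), with the opposite sign under loess. E2F4 (chr16:67225829-67226852) had 99.4, 96.9 and 87 in G1 and 134.3, 131.4 and 112.1 in M-phase. Its groups did not overlap, yet the log2 change of 0.38 (standard error 0.21) did not pass the test (limma adjusted p = 0.167), and it was close to the median of 0.39 over all tested TSS peaks. E2F5 (chr8:86089067-86090614) had 350.9, 294.5 and 452 in G1 and 279.7, 302.8 and 327.7 in M-phase, and the groups overlapped. Its log2 change was -0.24 (standard error 0.17, limma adjusted p = 0.32), the lowest of the 11, and 3 other scalings called it lower.

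**Figure D2:**
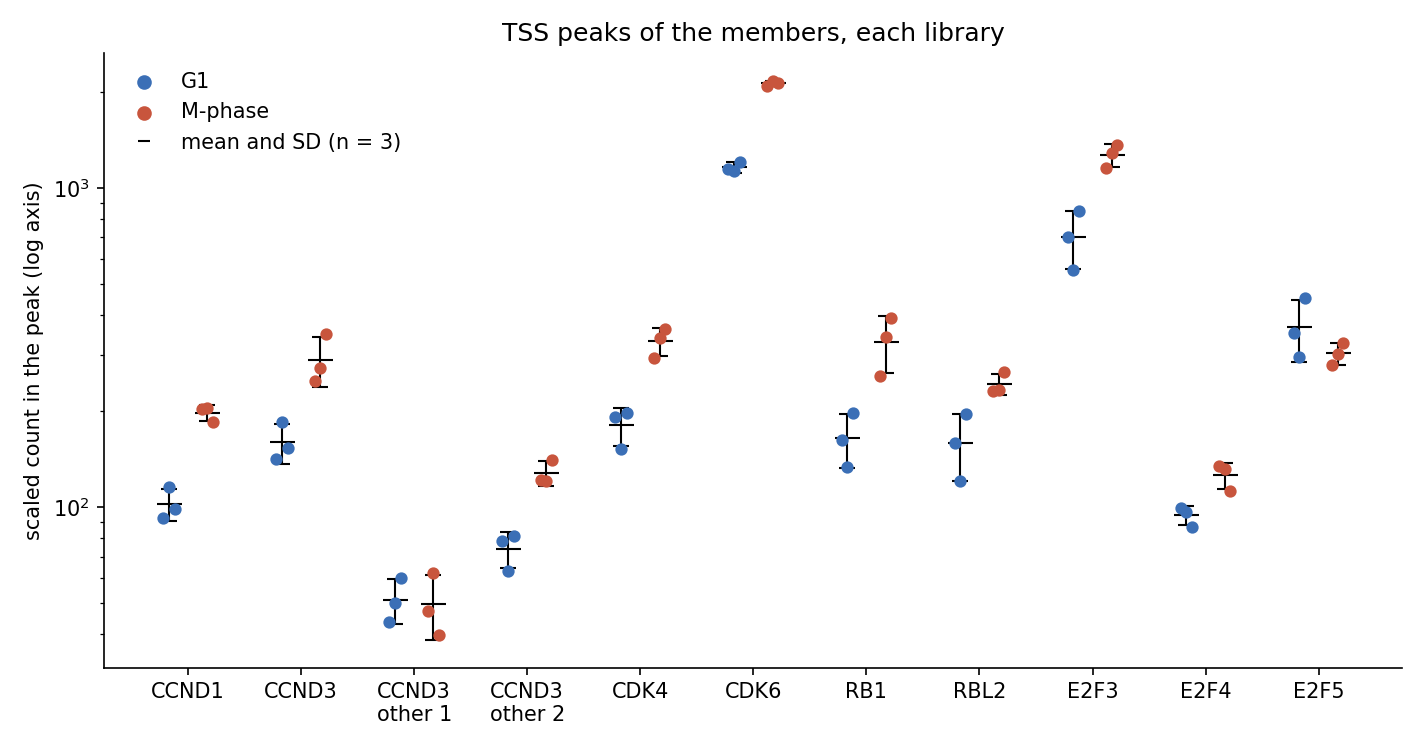
Scaled counts (log axis) of the 11 TSS peaks in each library, G1 in blue and M-phase in red, with the mean and SD over 3 libraries. The 2 CCND3 peaks named other are the one at 42016307 and the one shared with TAF8, in that order. The phases overlap at the first of these and at E2F5, and M-phase lies above G1 at the other 9.

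Per kb of peak, G1 accessibility of the promoters fell into a higher and a lower range. E2F3, E2F5 and CDK6 had mean scaled counts per kb of 240 ± 49.6, 236 ± 51.6 and 234 ± 8.78 (SD, n = 3), which do not differ beyond their spread. CDK4 followed with 147 ± 20.0, RB1 with 112 ± 21.6 and RBL2 with 104 ± 24.5, and the canonical CCND3 peak had 96.7 ± 13.8, E2F4 92.2 ± 6.40 and CCND1 78.5 ± 9.14. Neighbours from RB1 downward overlap within their SDs. In M-phase E2F3 and CDK6 reached 435 ± 36.0 and 430 ± 7.17 per kb, while E2F5 was at 196 ± 15.5. The TSS peaks shared GC-rich sequence, with a median GC content of 62.7% (58.3% to 66.6%) against 45.6% in the flanking peaks, and a median width of 1468 bp against 240.5 bp. Over all peaks the median width was 1152 bp at a TSS and 221 bp at no TSS, and GC content was not compared. In the central 200 bases, 5 of the members' 11 TSS peaks held the SP and KLF word GGGCGGG (either strand), compared with 30.4% of all TSS peaks. None of the 11 held an AP1, FOX, RUNX or TEAD word.

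How libraries were scaled to each other bears on the size of these rises. With each library set to an equal total in peaks, the median over all tested peaks moved from 0.02 to -0.24, and it was -0.08 with TMM factors and 0.03 with a loess fit on abundance. The median of the members' TSS peaks was 0.69 with TMM, 0.48 with equal totals and 0.17 with loess, beside 0.26, 0.07 and 0.06 for all tested TSS peaks. The CCND1 and RB1 promoters kept their call under all 13 alternatives. Under loess, CDK6 and E2F3 turned to -0.45 and -0.25, and the adjusted p from limma was 3.58e-07 and 0.0131. The E2F5 promoter was called lower under TMM (-0.38), equal totals (-0.59) and loess (-0.95).

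**Figure D3:**
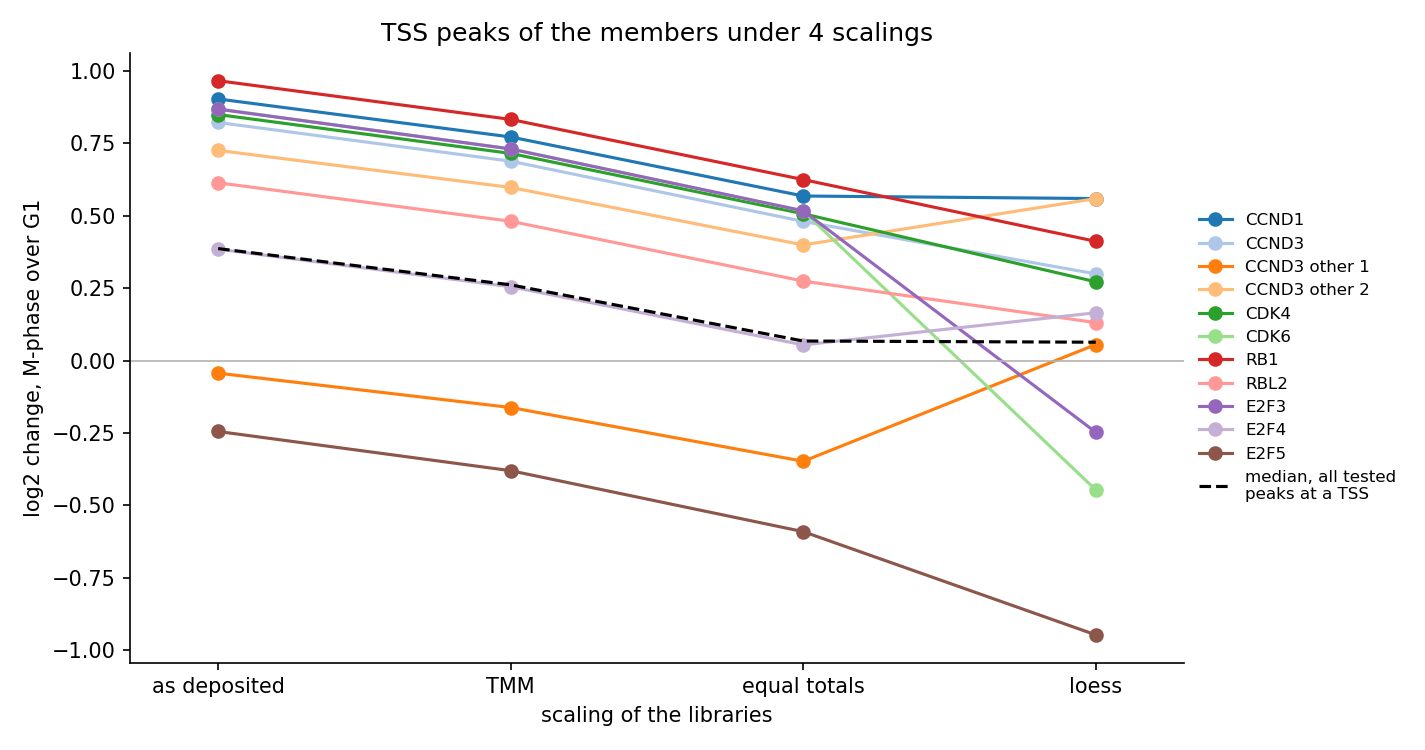
Log2 change (M-phase over G1) of the 11 TSS peaks under 4 scalings of the libraries, as deposited, TMM factors, equal totals in peaks and a loess fit on mean abundance, with the median over all tested TSS peaks dashed. CCND1 and RB1 stay above 0 throughout, CDK6 and E2F3 cross 0 under loess, and E2F5 lies below 0 in each.

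CDK6 held 41 of the 86 flanking peaks, and its introns contained both gains and losses. The largest rise was at chr7:92381443-92382245, 84.0 kb into the gene from the canonical TSS. It had scaled counts of 60.6, 53.1 and 78 in G1 and 133.9, 146.3 and 169.9 in M-phase, with no overlap and a log2 change of 1.14 (standard error 0.21, limma adjusted p = 1.11e-05), and its call held in all 13 alternatives. Deeper in the gene, 3 strong peaks between 118 and 141 kb from the TSS lost accessibility.

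The largest of these falls was at chr7:92327556-92328264, with 210.8, 219.5 and 326 in G1 and 99.3, 117.8 and 126.6 in M-phase (log2 change -1.06, standard error 0.19, limma adjusted p = 8.25e-06). Close to it, chr7:92324744-92325562 had 208.8, 223.4 and 240 in G1 and 124, 108.4 and 136.7 in M-phase (log2 change -0.83, limma adjusted p = 0.000392). Both calls held in all 13 alternatives, and no G1 library overlapped an M-phase library at either. The strongest flanking peak of the gene, chr7:92346935-92348327, had 301.2, 271.9 and 411 in G1 and 224.5, 201.9 and 202.6 in M-phase. It fell by 0.61 on the log2 scale (limma adjusted p = 0.00646, and 0.0526 without M-phase replicate 2).

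The other 5 flanking peaks called higher at CDK6 were weaker findings. They lay in introns 70.1, 72.5, 82.6, 201.4 and 203 kb from the TSS and rose by 0.54, 0.54, 0.85, 0.60 and 0.49 on the log2 scale. The peak at 82.6 kb needed its M-phase values to pass the filter. All 5 calls were lost without G1 replicate 1, without G1 replicate 2 and without M-phase replicate 2, and 4 of them were lost without M-phase replicate 1 and 4 without M-phase replicate 3. Equal totals also ended all 5 calls, with log2 changes of 0.15 to 0.67. In the cases with a library left out the log2 change was 0.24 to 0.81 and the limma adjusted p 0.0513 to 0.401. Over all 41 peaks the summed scaled count was 1935 ± 313 in G1 and 1954 ± 36.4 in M-phase (SD, n = 3), a difference within the spread, although single peaks went up and down. The share of the TSS peak in the summed scaled counts of TSS and flanking peaks went from 38.9%, 39.7% and 34.5% in the G1 libraries to 52.2%, 52.5% and 51.6% in M-phase.

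**Figure D4:**
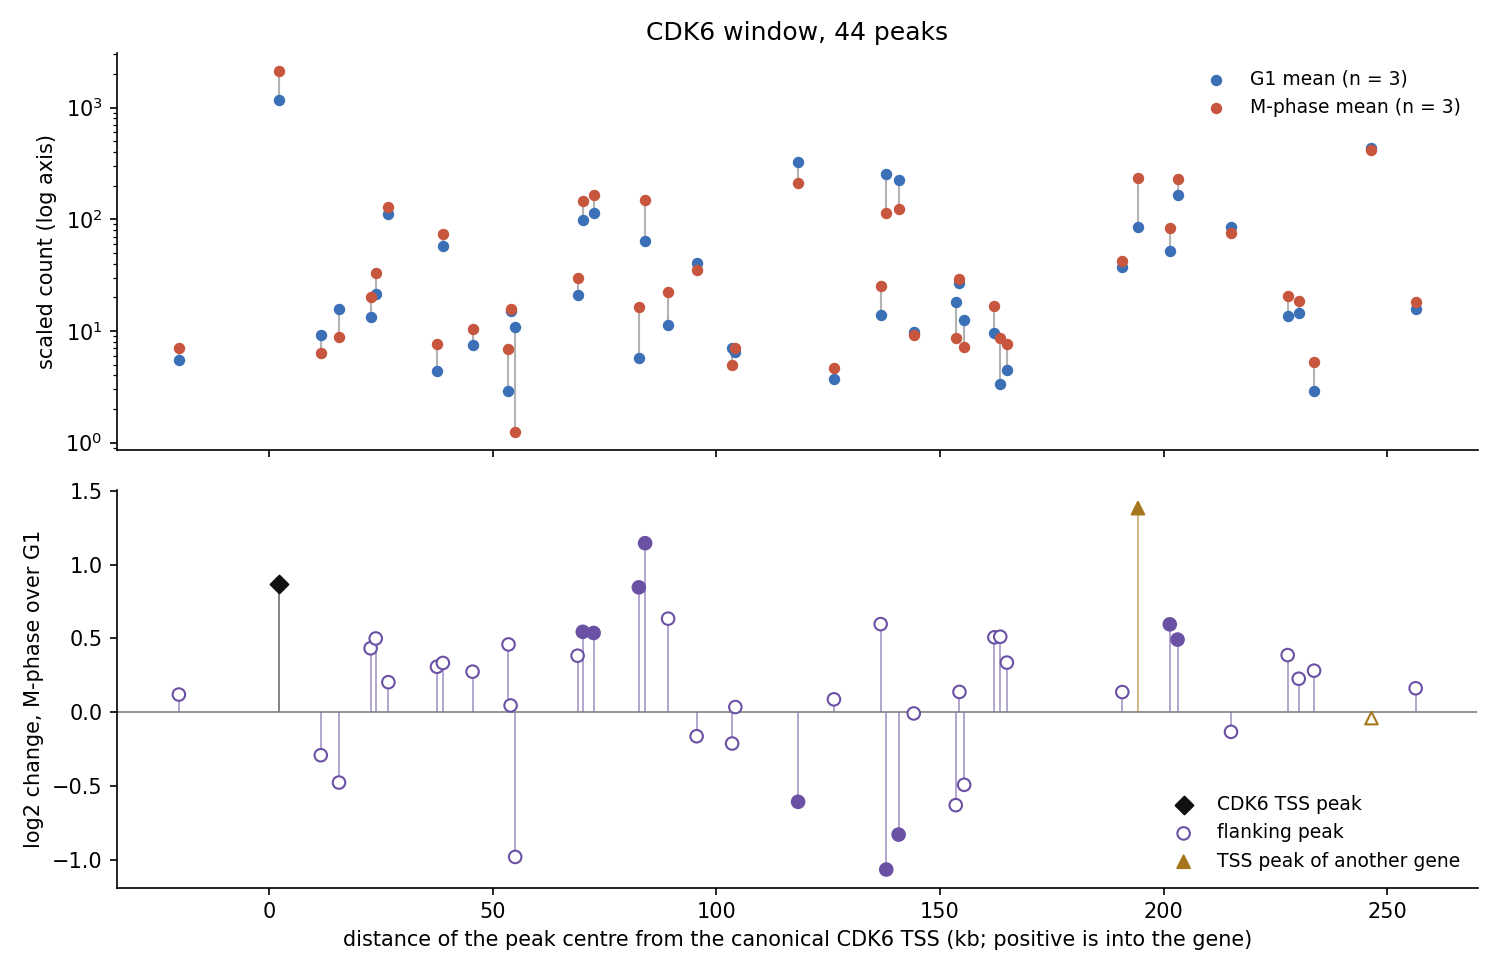
CDK6 window by distance of each peak centre from the canonical TSS in kb. The upper part gives the mean scaled count in G1 (blue) and M-phase (red) on a log axis (n = 3 each), and the lower part the log2 change, filled where called. The promoter (lower under loess) and the peak at 84.0 kb rise while the peaks between 118 and 141 kb fall, and the triangle at 194 kb is the start of a noncoding gene inside an intron.

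Of 27 tested flanking peaks outside CDK6, 1 was higher and 6 were lower, against 6.51% and 15% of all tested peaks at no TSS. CDK6 held 6 of the 7 flanking peaks called higher, so setting it aside leaves mostly falls among the called peaks. Except for RB1 at 49174801, the fallen peaks outside CDK6 needed their G1 values to pass the filter. With a minimum of 10 in every library, 7 flanking peaks were called higher and 4 lower, CDK6 included. These counts were not tested. The single rise outside CDK6 lay 1.97 kb upstream of CCND1 (chr11:69453670-69454234). It had 77.5, 53.9 and 86 in G1 and 95.2, 126.1 and 147.2 in M-phase, a log2 change of 0.70 (limma adjusted p = 0.00952). It was not called without G1 replicate 2 (adjusted p = 0.0901), M-phase replicate 2 (0.0607) or M-phase replicate 3 (0.108 from limma), nor with equal totals (log2 change 0.38, limma adjusted p = 0.13). The strongest flanking peak of CCND1, 2.02 kb inside the gene, had 80.5, 119.5 and 93 in G1 and 90.2, 124 and 110.2 in M-phase and was not called (log2 change 0.14).

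RB1 had the most tested flanking peaks outside CDK6, and 3 of the 9 were called lower (15% over all tested peaks at no TSS). In GENCODE 44 its body runs to 49173572 on chromosome 13, far past the end of the canonical transcript at 49056026, and all 3 falls lie beyond that end, in or next to other genes. The largest, chr13:49159645-49159891, overlaps the noncoding gene LINC00462 and had 33.8, 29.7 and 61 in G1 and 11.5, 7 and 5.8 in M-phase. Its log2 change of -1.58 (standard error 0.29, limma adjusted p = 7.91e-06) was the largest of all 113 peaks in either direction. The call held in each of the 12 alternatives in which the peak was tested. This peak needed its G1 values to pass the filter, and the alternative with a minimum in every library left it untested. Just downstream of the RB1 body, chr13:49174801-49175557 had 54.7, 51.6 and 63 in G1 and 38.3, 23.9 and 27.9 in M-phase (log2 change -0.77, limma adjusted p = 0.014, and 0.108 without M-phase replicate 2).

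The third fall at RB1, chr13:49079919-49080159, lies in the overlapping gene RCBTB2. This peak also needed its G1 values to pass the filter. It had 13.9, 14.8 and 30 in G1 and 7.8, 9.9 and 4.8 in M-phase (log2 change -0.80, limma adjusted p = 0.03). Its call was lost without G1 replicate 3 (-0.54, adjusted p = 0.224), M-phase replicate 1 (-0.82, adjusted p = 0.0704) or M-phase replicate 3 (-0.67, limma adjusted p = 0.138). The TSS share of the RB1 window went from 43.5%, 37.6% and 41.1% in G1 to 57.1%, 67.6% and 71.0% in M-phase, with flanking sums of 239 ± 37.9 and 172 ± 18.4 (SD, n = 3).

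RBL2, E2F3 and E2F5 each had 1 flanking peak called lower and none called higher, of 2, 1 and 3 tested. Over all tested peaks at no TSS, 6.51% were higher and 15% lower. Upstream of E2F3, 23.8 kb from its TSS, chr6:20378018-20378516 had 33.8, 25 and 48 in G1 and 10.7, 13.6 and 2.4 in M-phase (log2 change -1.40, standard error 0.30, limma adjusted p = 0.000101). Upstream of RBL2, 17.4 kb away, chr16:53450929-53451125 had 19.9, 17.2 and 11 in G1 and 1.6, 4.5 and 2.9 in M-phase (log2 change -1.12, limma adjusted p = 0.000956). At both genes the promoter peak was called higher as deposited while this upstream peak fell. Both upstream peaks needed their G1 values to pass the filter. The 2 falls held in each of the 12 alternatives in which they were tested. A minimum of 10 in every library left both peaks untested.

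In an intron of E2F5, chr8:86112448-86112930 had 18.9, 21.1 and 20 in G1 and 4.9, 9.9 and 11.5 in M-phase (log2 change -0.76, limma adjusted p = 0.0374). This call was lost when any 1 library other than M-phase replicate 3 was left out, with adjusted p of 0.0655 to 0.221 from limma, under loess (0.0642) and without the filter on low values (0.0568). The E2F5 peak also needed its G1 values to pass the filter. CCND2, CCND3 and E2F4 had no flanking peak called in either direction. Their strongest flanking peaks changed by -0.28, 0.21 and -0.06 on the log2 scale, and CDK4 had no flanking peak.

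**Figure D5:**
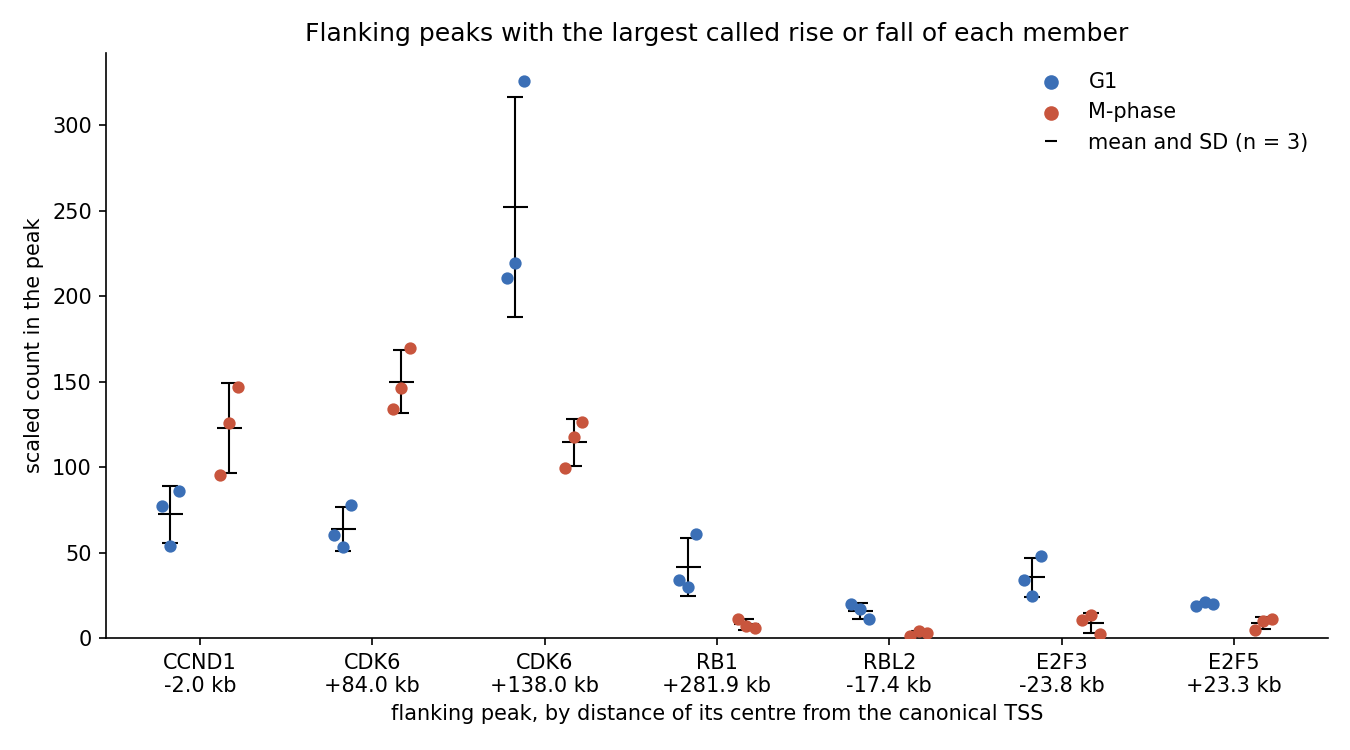
Scaled counts per library of the flanking peaks with the largest called rise or fall of each gene, labelled by their distance from the canonical TSS in kb, with the mean and SD over 3 G1 (blue) and 3 M-phase (red) libraries. The groups do not overlap at any of the 7 peaks, of which CCND1 at -2.0 kb and CDK6 at 84.0 kb rose and the other 5 fell.

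Peaks called higher had a median mean scaled count of 107 and peaks called lower 24.8, but within CDK6 the 3 fallen peaks had means of 174, 183 and 269 and the 6 raised ones 11.0 to 196. The difference was not tested. The 29 flanking peaks below the minimum had a median of 5.97. An AP1 word (TGANTCA) was present in the central 200 bases of 4 of the 7 raised peaks, all in CDK6. It was in 0 of the 9 fallen peaks and in 5 of the 21 tested but uncalled flanking peaks of CDK6. Of the 86 flanking peaks 17.4% held it, and of all peaks at no TSS 12.9%. Over whole peaks, which differ in length, 6 of the 7 raised peaks and 1 of the 9 fallen peaks held an AP1 word, and that fallen peak, at 92346935 in CDK6, held 3. FOX words were in 2 of 9 fallen and 1 of 7 raised peaks. Of the 86 flanking peaks 11.6% held one, and of all peaks at no TSS 5.17%. RUNX words were in 2 of 9 and 0 of 7 (6.98% and 5.73%). A TEAD word was in 1 of 9 and 0 of 7 (6.98% and 3.55%). Among the raised peaks, the one at 92383159 in CDK6, which held an AP1 word, needed its M-phase values to pass the filter. Most fallen peaks outside CDK6 needed their G1 values. The word counts are descriptions of letters in a window, with no test.

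The rest of the pathway was read at the TSS peaks of 26 further genes, which include E2F1, the DREAM subunits LIN9, LIN37, LIN52 and LIN54, cyclin E and the CDK inhibitors. TSS peaks were present for 25 of them, 27 in all, and CDKN2C had none. Of these 27 peaks 20 were higher, 0 lower and 7 not called, against 43.2% higher and 5.94% lower of all tested TSS peaks. Their median log2 change was 0.64, beside 0.39 over all tested TSS peaks, and loess left 8 higher and 1 lower. The largest rises were at an alternative start of LIN54, a DNA-binding subunit of DREAM, with a log2 change of 1.24 (limma adjusted p = 1.1e-07), and at CDKN1B, which encodes the CDK inhibitor p27. The canonical CDKN1B promoter had 313.2, 228.9 and 274 in G1 and 595.7, 545.9 and 641.9 in M-phase (log2 change 1.11, limma adjusted p = 7.65e-08), and its other start 36.8, 43 and 56 in G1 and 115.3, 102.2 and 116 in M-phase (log2 change 1.18). The peaks not called were those of E2F2, the E2F dimerization partners TFDP1 and TFDP2, LIN37, SKP2, CCNA2 and MYBL2, with log2 changes from -0.07 at TFDP1 to 0.35 at E2F2.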

How the data were processed

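Accessibility was measured by ATAC-seq in T98G cells (3 G1 and 3 M-phase libraries). Chromatin fraction and input samples were not analysed here. By the paper's methods and the submitters' processing notes, the authors trimmed reads with cutadapt, aligned to hg19 by Rbowtie (QuasR, where reads with several locations were kept at 1, so near-identical copies share reads) and took out mitochondrial reads with SAMtools. Broad peaks came from MACS2 run on the pooled replicates of a phase and were joined across phases. Tool versions and a Tn5 shift are not given in the sources used here. The signal values that the authors deposited are read counts per peak, scaled to the smallest library and rounded to 0.1. A log2 column of M-phase over G1 and its SD hold the authors' own comparison and were not used. An M-phase column covers the HiSeq and NextSeq runs of a replicate, joined in a way the sources used here do not give.

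Values were transformed to log2(scaled count + 8) and fitted with limma 3.58.1 (mean-variance trend) in R 4.3.3 without covariates or further scaling. Peaks were kept with at least 3 libraries at a value equal to 10 in a library of median size and a total of at least 15 (73121 of 129347), and p-values were adjusted over all of them. The fit was tested on simulated data. Estimated from the spacing of the values, 1 read was worth a constant per library (0.78 to 1.00 in G1, 0.41 to 0.48 in M-phase), and at least 99.98% of values per library were multiples of it within 0.055. Annotation was GENCODE 44 on GRCh37, and promoter and peak sequences were read from GRCh37 with pysam 0.24.0. Other steps used Python 3.11.15, numpy 2.4.6, pandas 2.3.3 and matplotlib 3.10.9.

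The members and lists were chosen with earlier results of these data known. Each TSS peak of a member was named, as were its flanking peaks with the largest called rise, the largest called fall and the highest mean. Of the other pathway genes the 3 largest called rises were named. The remaining called flanking peaks, the CCND2 peak nearest its TSS, and the uncalled pathway genes were named after their values were seen. Alternatives were other scalings, a pseudocount of 1, other filters, a replicate block, each library left out, a TSS distance of 1 kb and gene bodies alone.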

Additional observations from a re-analysis of the deposited data

How the results depend on the processing

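Over all peaks (10439 higher, 9548 lower), equal totals gave 6341 higher and 18090 lower, and a minimum of 10 in every library gave 5001 lower. Of all member peaks (24 higher, 9 lower), equal totals called 12 higher and 16 lower, loess 12 and 15, and the minimum of 10 in every library 4 lower. Of TSS peaks (8 higher, 0 lower), loess called 3 higher and 3 lower, and TMM and equal totals each called 1 lower (E2F5). Of flanking peaks (7 higher, 9 lower), TMM called 3 higher, equal totals 1 and no filter 4, and the minimum of 10 in every library 4 lower. Of the other pathway peaks (20 higher, 0 lower), equal totals called 13 higher, and loess 8 higher and 1 lower. The median change of TSS peaks was 0.48 with equal totals and 0.17 with loess, and that of flanking peaks reversed to -0.12 with equal totals. The cause was not tested.

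Leaving out each library in turn gave 7928 to 11925 higher and 7230 to 9358 lower over all peaks, 14 to 25 and 7 to 9 of member peaks, 6 to 8 and 0 of TSS peaks, 1 to 7 and 7 to 9 of flanking peaks, and 15 to 22 and 0 of pathway peaks, with medians of 0.69 to 0.88 (TSS) and 0.05 to 0.09 (flanking). Higher member peaks fell to 15 without G1 replicate 2, and to 14 without M-phase replicate 2 and without M-phase replicate 3. Higher flanking peaks fell to 2, 1, 3, 1 and 2 without G1 replicates 1 and 2 and M-phase replicates 1, 2 and 3.

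Single peaks reversed under loess at CDK6 (-0.45) and E2F3 (-0.25), the only called peaks to do so. Uncalled peaks that changed sign were CCND3 at 42016307 (0.056 under loess, 0.061 without G1 replicate 3 and 0.083 without M-phase replicate 3), CCND1 at 69457553 (-0.19 with equal totals and -0.045 under loess), CCND3 at 41934797 (-0.058 with equal totals), E2F4 at 67241839 (0.064 under loess, and -0.23 to 0.061 with a library left out) and E2F5 at 86064840 (-0.35 to 0.040 with a library left out). Of the 24 called peaks named, 8 kept their call in each alternative that tested them. Replicates with the same number did not deviate together (r of 0.0059, -0.0101 and 0.0284 across peaks), and a replicate block gave 10881 higher and 10063 lower over all peaks, with 8 and 0 TSS peaks and 7 and 9 flanking peaks. A count model on whole reads was planned and not run, because M-phase replicates 1 and 2 did not meet a stricter check of the reads recovered from the scaled values. The 29 flanking peaks left untested had a median mean scaled count of 5.97. All M-phase libraries lay above all G1 libraries at 2 of them and below at 1. Over all peaks at no TSS, tested or not, these shares were 12.2% and 14.4%.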

Other observations

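The windows also held 16 peaks at start sites of other genes only, and 15 of these entered the test, with 9 called higher and 0 called lower, against 43.2% and 5.94% of all tested TSS peaks. The largest rise was at the start of a noncoding gene (ENSG00000287932) inside a CDK6 intron (chr7:92271176-92272071), with scaled counts of 69.6, 83.6 and 104 in G1 and 238.5, 253 and 210.8 in M-phase, a log2 change of 1.38 (limma adjusted p = 2.72e-08). Next came the start shared by MED20, a Mediator subunit gene, and BYSL downstream of CCND3 (1.15), and the MATCAP1 start upstream of E2F4 (1.10). E2F4 itself, 8.13 kb from the MATCAP1 peak, was not called. In the CDK4 window, which holds start sites of 4 other loci, METTL1 and EEF1AKMT3 (0.78), TSPAN31 (0.61) and MARCHF9 (0.59) were higher along with CDK4, while the AGAP2-AS1 start was at -0.0007. In the E2F5 window the start shared by CA13 and RBIS had 354.9, 364.1 and 499 in G1 and 273.9, 323 and 381.1 in M-phase (log2 change -0.31, limma adjusted p = 0.193), the same sign as the E2F5 promoter, and neither was called. These peaks were chosen after their values were seen.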
